A study of Mus musculus with 4 samples.

Results

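The genes described here are 10 products of the gut lining that act against microbes or shape its surface: Lcn2, Reg3b, Reg3g, Itln1, Pla2g2a, Duox2, Duoxa2, Nox1, Fut2 and Sprr2a3. They were taken by symbol from 19308 genes listed for every library, and all 10 were found there and passed the filter on low counts. Their transcripts were counted by RNA sequencing in flash-frozen colonic mucosa of Itch knockout (Itch KO) mice, described as inflamed, and of wild-type (WT) C57BL/6 mice. Itch encodes an E3 ubiquitin ligase. Each group held 2 libraries. The labels give the state of inflammation to all 4 libraries, although the protocol uses that word only for the knockout mucosa. The sources used here do not give age, the kind of knockout allele or whether replicates came from separate animals. The p-values therefore describe the spread between these libraries, which may not be that between animals. It was larger than read sampling alone gives (chi-square per degree of freedom of 24.8 for Itch KO and 32.8 for WT).

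The colonic epithelium meets microbes with secreted proteins and with oxidants. Lipocalin-2 binds bacterial siderophores and so withholds iron. REG3B and REG3G are C-type lectins secreted into the lumen, and REG3G kills Gram-positive bacteria. DUOX2 and NOX1 are membrane oxidases that produce hydrogen peroxide or superoxide at the epithelial surface. Several of these genes are known targets of interleukin-22 and interleukin-17 in the mouse gut.

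Over the 19308 genes, total counts were 8181193 and 9463759 in the Itch KO libraries and 9674531 and 12199709 in the WT libraries. Itch stood at 11.9 and 13.4 CPM (counts scaled to library size) in the Itch KO libraries, against 204 and 183 CPM in the WT libraries, a log2 fold change of -3.93 (SE 0.15, edgeR adjusted p = 0.0922). The 12 colon epithelium markers were detected in every library and summed to 2280 and 1717 CPM in the Itch KO libraries, against 2224 and 1928 CPM in the WT libraries. Markers of other tissues stood out in 3 libraries. The 11 squamous epithelium markers summed to 30.2 and 36.7 CPM in the Itch KO libraries, against 972 CPM in WT replicate 1 and 14.9 CPM in WT replicate 2, where Dsg3 and Ivl had 0 counts (as Ivl did in Itch KO replicate 1). The 8 listed Paneth cell and small intestine markers summed to 101 and 94.1 CPM in the Itch KO libraries, against 131 and 328 CPM in the WT libraries. These genes did not share 1 pattern. Sis, a brush-border enzyme of the small intestine, was at 0.369 and 0.31 CPM in the Itch KO libraries, against 1.71 and 172 CPM in the WT libraries. Slc10a2, the ileal bile acid transporter, was at 7.13 and 3.30 CPM in the Itch KO libraries, against 27.3 and 95.5 CPM in the WT libraries. Fabp6, an ileal bile acid binding protein, was at 9.09 and 4.85 CPM in the Itch KO libraries, against 20.6 and 26.3 CPM in the WT libraries. Lyz1 was higher in WT replicate 1 than in WT replicate 2, and Apoa4 had 0 counts in both. A list of 16 pancreatic acinar genes, chosen after the values were seen and with 15 genes listed, summed to 105 and 1205 CPM in Itch KO replicates 1 and 2, against 124 and 80.0 CPM in the WT libraries. Pnlip, the pancreatic lipase, had 0 counts in the other 3 libraries and 112 CPM in Itch KO replicate 2.

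No member passed the planned test. edgeR's quasi-likelihood test with Benjamini-Hochberg adjustment over 16956 genes called 0 genes, so the background was 0.0% higher and 0.0% lower. At an unadjusted p below 0.05, 3 of the 10 members were higher in Itch KO mucosa and 0 lower, where 10.2% of all tested genes were higher and 9.52% lower. DESeq2, an alternative test, called 2 members higher, Lcn2 and Pla2g2a, and 0 lower, against 5.24% and 4.76% of all genes. All 10 log2 fold changes were above 0, with a median of 0.60, while 8587 of the 16956 tested genes were above 0, with a median of 0.0085. Among the 10% of genes with the highest CPM per kilobase of exon, to which 5 members belong, the median was 0.19. In 4 members both Itch KO libraries lay above both WT libraries, a separation that 30.0% of all tested genes showed, and in 0 members both lay below, as in 26.0% of genes. A list of 10 genes chosen with earlier results of these data known is no sample of the epithelial response. In bulk tissue, fewer cells of a type and less RNA per cell cannot be told apart.

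**Figure D1:**
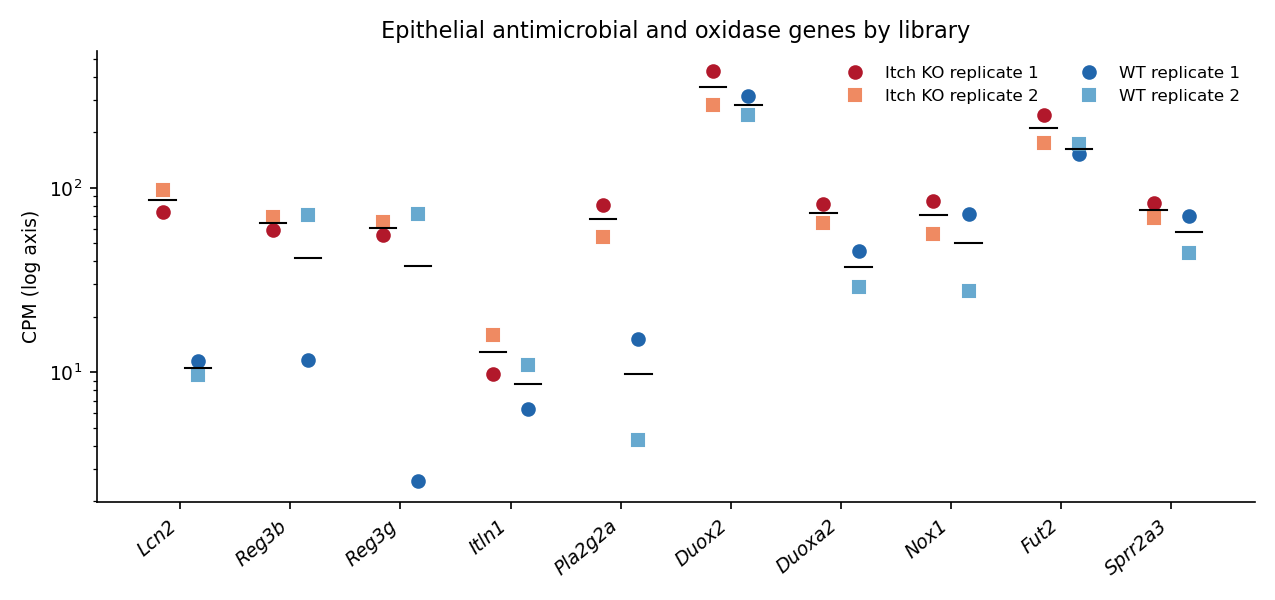
Level of each member in CPM (log axis) in the 2 Itch KO and the 2 WT libraries, with a horizontal bar at each group mean. Lcn2 and Pla2g2a show the widest gaps between the groups, and Reg3b and Reg3g show a WT replicate 1 far below the other 3 libraries.

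Lcn2 was the member with the largest difference (ENSMUSG00000026822, GRCm38 chromosome 2, 32384633 to 32388252, minus strand, protein-coding). It was at 73.8 and 97.3 CPM in the Itch KO libraries, against 11.5 and 9.62 CPM in the WT libraries. Both knockout values lay far above both WT values, and the replicates within each group were close. Lcn2 averaged 85.6 ± 16.6 CPM in Itch KO and 10.6 ± 1.35 CPM in WT mucosa (SD, n = 2 each), an 8.10-fold difference. The log2 fold change of Lcn2 reached 3.02, with a standard error (SE) of 0.24, and 2.40% of tested genes had a larger one. edgeR gave an unadjusted p of 0.000135 and an adjusted p of 0.114, and DESeq2 an adjusted p of 9.05e-16. With each library left out in turn the log2 fold change stayed between 2.81 and 3.20.

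Lcn2 is also stored in the granules of neutrophils. The 11 neutrophil markers summed to 440 and 692 CPM in the Itch KO libraries, against 255 CPM in WT replicate 1 and 20.6 CPM in WT replicate 2, where Elane had 0 counts. In 9 of the 11 genes both Itch KO libraries lay above both WT libraries, and in 2, Ltf and Ly6g, the groups overlapped. Of all tested genes, 30.0% showed that separation. Mpo and Elane, which are among the 9, had too few counts to be tested. They had 3 and 1 counts in Itch KO replicate 1 and the same counts in WT replicate 1. Ngp, a granule protein gene, was at 29.6 and 70.4 CPM in the Itch KO libraries, against 1.17 and 0.326 CPM in the WT libraries. Retnlg, a neutrophil-enriched secreted protein gene, was at 39.6 and 49.99 CPM in the Itch KO libraries, against 5.97 and 3.91 CPM in the WT libraries. Ngp and Retnlg were thus low in both WT libraries and higher in both Itch KO libraries, and so was Camp. Other markers differed between the WT libraries. S100a8, S100a9, Cxcr2 and Csf3r were at 17.1, 23.7, 12.6 and 31.4 CPM in WT replicate 1. In WT replicate 2 they were at 2.85, 4.89, 0.733 and 3.75 CPM. Ltf, which encodes lactoferrin, was at 58.1 and 82.9 CPM in the Itch KO libraries, against 126 and 2.28 CPM in the WT libraries, and made up much of the sum in WT replicate 1. The marker genes named here were picked after their values were seen. The part of neutrophils in the difference between Itch KO and WT mucosa was not tested.

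Promoter sequence from RefSeq (GRCm38.p6) was found for 8 of the 10 members, all but Fut2 and Pla2g2a. The 250 bases before each annotated start were searched on both strands for TTCNNNGAA (a STAT pattern), GGG, any 5 bases and CC (an NF-kB pattern) and TTGCNNAA (a C/EBP pattern), after bases of annotated untranslated exons were left out. The NF-kB pattern occurred in 5 of the 8 stretches, the STAT pattern in 2 and the C/EBP pattern in 1. Of all 32544 promoters, 46.0%, 7.04% and 9.58% held these patterns in the full 250 bases. The 8 counts are not directly comparable with those shares, since 192 bases were left for Lcn2, 154 for Reg3b and 28 for Duox2, against 250 for the others. The NF-kB pattern is loose, and in Nox1 and Itln1 its matches overlap each other by all but 1 base. The stretches of Lcn2, Reg3b and Nox1 lie inside the gene spans given here, which come from GENCODE and begin further upstream. A match describes letters only. The Lcn2 stretch is shown because Lcn2 differed most, with the matches in capitals: a C/EBP pattern at -216 to -209 and an NF-kB pattern at -102 to -93 from the start, on chr2:32387798-32387989, minus strand. Stretches at the same offsets held these patterns in 7.84% and 35.8% of all promoters.
Lcn2: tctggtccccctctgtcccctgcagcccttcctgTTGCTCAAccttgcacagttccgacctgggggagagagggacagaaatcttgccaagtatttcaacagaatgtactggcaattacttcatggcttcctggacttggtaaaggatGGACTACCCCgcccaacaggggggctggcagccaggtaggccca

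Reg3b and Reg3g, the paralogous lectins, had similar CPM in 3 libraries and were both lower in WT replicate 1. Reg3b (ENSMUSG00000071356, chromosome 6, 78370657 to 78373466, plus strand) was at 59.3 and 69.6 CPM in the Itch KO libraries, against 11.6 and 71.6 CPM in WT replicates 1 and 2. Reg3g (ENSMUSG00000030017, chromosome 6, 78466269 to 78468872, minus strand) was at 55.7 and 65.6 CPM in the Itch KO libraries, against 2.56 and 72.5 CPM in the WT libraries. WT replicate 1 was therefore low for both genes and WT replicate 2 slightly above both Itch KO libraries, so the groups overlapped. Reg3g rested on 24 counts in WT replicate 1 and on 890 in WT replicate 2. The log2 fold change was 0.63 (SE 0.85) for Reg3b and 0.69 (SE 1.36) for Reg3g, with edgeR adjusted p of 0.703 and 0.798.

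A single WT library set the direction of both genes. Without WT replicate 1 the log2 fold change was -0.13 for Reg3b and -0.24 for Reg3g, and without WT replicate 2 it was 2.47 and 4.56. The adjusted p for these 4 values lay between 0.160 and 0.780 in edgeR. WT replicate 1 is the library with squamous markers at 972 CPM, and WT replicate 2 the one with Sis at 172 CPM. Their part in the Reg3b and Reg3g levels was not tested. No 50-base stretch of either gene's annotated transcripts occurred in a transcript of another gene.

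The promoters of the 2 lectin genes are shown because both genes gave the same order of the 4 libraries. The genes lie 92802 bases apart on opposite strands. The Reg3b stretch, on chr6:78370707-78370860, plus strand, lies inside the gene span given above and held a STAT pattern at -129 to -121. The Reg3g stretch, on chr6:78468875-78469124, minus strand, held an NF-kB pattern at -123 to -114. Capitals mark these matches, and the longest run that both stretches share is the 11-base ccctccctcaa. At the same offsets, 4.21% of all promoters held the STAT pattern and 46.0% the NF-kB pattern.
Reg3b: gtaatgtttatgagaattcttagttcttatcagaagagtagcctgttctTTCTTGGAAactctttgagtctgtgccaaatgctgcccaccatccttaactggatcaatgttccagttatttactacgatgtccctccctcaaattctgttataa
Reg3g: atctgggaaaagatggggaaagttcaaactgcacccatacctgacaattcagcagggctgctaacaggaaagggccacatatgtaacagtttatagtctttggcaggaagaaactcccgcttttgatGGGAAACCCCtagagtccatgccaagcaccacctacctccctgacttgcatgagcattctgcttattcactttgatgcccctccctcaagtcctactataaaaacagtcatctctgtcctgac

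Other genes of the Reg family behaved differently from library to library. Reg4, a lectin of secretory epithelial cells, was at 96.2 and 67.03 CPM in the Itch KO libraries, against 89.9 and 51.5 CPM in the WT libraries. Its groups overlapped, with a log2 fold change of 0.21 (SE 0.35). Reg1 was at 0.614 and 59.1 CPM in Itch KO replicates 1 and 2, against 0.107 and 3.10 CPM in the WT libraries. Reg3a and Reg3d, named after their values were seen, were also high in Itch KO replicate 2 alone, at 46.4 and 36.0 CPM there. That is the library in which the pancreatic acinar genes summed to 1205 CPM. Reg1, Reg3a and Reg3d are expressed in pancreas as well as gut, and the part of pancreatic RNA in their level was not tested. Reg3b and Reg3g were not particularly high in that library, at 69.6 and 65.6 CPM against 59.3 and 55.7 CPM in the other Itch KO library.

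**Figure D2:**
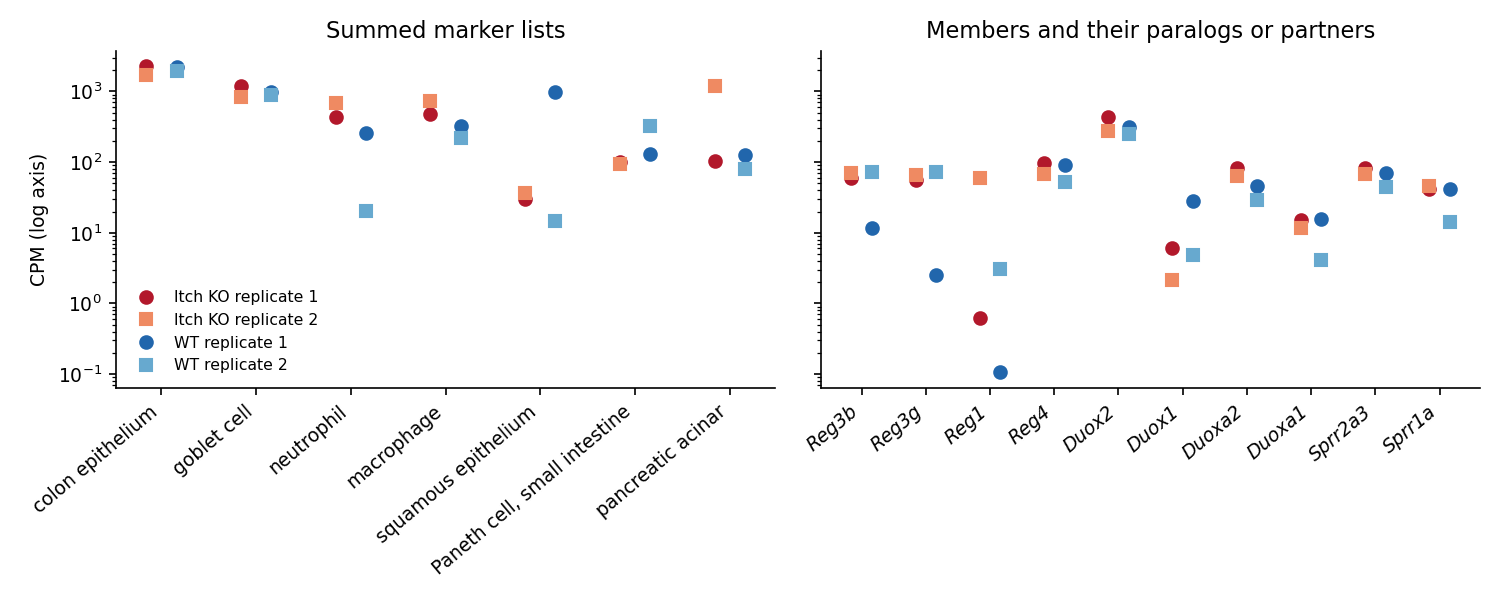
Left, summed CPM (log axis) of marker lists in each library, Itch KO left of WT for each list. Right, CPM of members with their paralogs or partners. Squamous markers were high in WT replicate 1, Paneth cell and small intestine markers in WT replicate 2 (328 CPM against 131 CPM in WT replicate 1), and pancreatic acinar genes in Itch KO replicate 2.

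Itln1, which encodes the lectin intelectin-1 that binds microbial glycans (ENSMUSG00000038209, chromosome 1, 171518122 to 171535294, minus strand), was the lowest member in CPM in Itch KO mucosa. It was at 9.83 and 15.9 CPM in the Itch KO libraries, against 6.29 and 10.9 CPM in the WT libraries. The replicates of each group differed by more than the group means and the groups overlapped. For Itln1 the log2 fold change was 0.58 (SE 0.53, edgeR adjusted p = 0.570).

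Pla2g2a encodes a secreted phospholipase A2 that cleaves bacterial membranes (ENSMUSG00000058908, chromosome 4, 138831857 to 138835186, plus strand). The C57BL/6 strain carries a natural disruption of this gene, and the annotation classes it as a polymorphic pseudogene. Its transcript is therefore not taken as a measure of enzyme. C57BL/6 is stated here for the WT mice only, and the part of strain in the levels of this gene was not tested. The transcript was at 80.5 and 54.2 CPM in the Itch KO libraries, against 15.1 and 4.32 CPM in the WT libraries. Both Itch KO libraries lay above both WT libraries, and the WT libraries differed 3.51-fold from each other. Pla2g2a averaged 67.4 ± 18.6 CPM in Itch KO and 9.73 ± 7.66 CPM in WT mucosa (SD, n = 2 each), a log2 fold change of 2.80 (SE 0.68), which 2.74% of tested genes exceeded. edgeR gave an unadjusted p of 0.0127 and an adjusted p of 0.164, and DESeq2 an adjusted p of 0.000435. Left-out libraries moved the log2 fold change between 2.14 without WT replicate 2 and 3.98 without WT replicate 1, and the unadjusted p was 0.0641 without Itch KO replicate 1.

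Of 10 other tested genes of secreted phospholipases A2 and their receptor, edgeR called 0 after adjustment, and their median log2 fold change was 0.29. At an unadjusted p below 0.05, 1 was higher and 0 lower, where 10.2% of all tested genes were higher and 9.52% lower. The count of higher genes was thus near the background. Pla2g2f was at 143 and 75.6 CPM in the Itch KO libraries, against 107 and 27.3 CPM in the WT libraries. Pla2g5 was at 84.9 and 62.1 CPM in the Itch KO libraries, against 52.7 and 18.7 CPM in the WT libraries. Pla2g10 was at 69.7 and 46.8 CPM in the Itch KO libraries, against 76.6 and 51.3 CPM in the WT libraries. The gene at an unadjusted p below 0.05 was Pla2g2d, at 24.2 and 34.5 CPM in the Itch KO libraries and 12.9 and 7.82 CPM in the WT libraries, and DESeq2 called it too (adjusted p = 0.0452).

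None of the oxidase genes differed as much as Lcn2 or Pla2g2a, and Duoxa2 had the largest log2 fold change among them. Duox2, the dual oxidase that releases hydrogen peroxide (ENSMUSG00000068452, chromosome 2, 122279247 to 122298449, minus strand), was at 428 and 279 CPM in the Itch KO libraries, against 315 and 248 CPM in the WT libraries. The lower Itch KO library lay below the higher WT library. The log2 fold change was 0.33 (SE 0.29, edgeR adjusted p = 0.549), and without Itch KO replicate 1 it was -0.0096. In both groups the replicate with the higher Duox2 level also had the higher sum of colon epithelium markers. The part of epithelial content in the Duox2 level was not tested. Set against that sum, Duox2 made up 18.8% and 16.3% in the Itch KO libraries and 14.2% and 12.9% in the WT libraries, which no longer overlapped. Nox1 (3.739% and 3.278%, against 3.256% and 1.425%) and Sprr2a3 (3.615% and 3.987%, against 3.18% and 2.291%) also ceased to overlap. Reg3b, Reg3g and Itln1 still overlapped. The share of all genes that separate on this scale was not computed. An edgeR fit scaled to these markers, chosen after the values were seen, gave Duox2 a log2 fold change of 0.38, an unadjusted p of 0.0316 and an adjusted p of 0.262. That fit called Lcn2 and Pla2g2a higher (adjusted p of 0.00985 and 0.0380) and 0 members lower, against 1.8% and 0.743% of all genes. At an unadjusted p below 0.05 it had 4 members higher and 0 lower, against 8.23% and 6.81% of all genes.

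Duoxa2, which encodes the maturation factor that DUOX2 needs to reach the cell surface (ENSMUSG00000027225, chromosome 2, 122298900 to 122302885, plus strand), differed more than Duox2. It was at 81.2 and 64.3 CPM in the Itch KO libraries, against 45.3 and 28.9 CPM in the WT libraries. Both Itch KO libraries lay above both WT libraries, with means of 72.8 ± 11.9 and 37.1 ± 11.6 CPM (SD, n = 2 each). This was a log2 fold change of 0.97 (SE 0.29), with an edgeR unadjusted p of 0.0243 and adjusted p of 0.199. DESeq2 gave an adjusted p of 0.0836. The difference between the changes of Duoxa2 and Duox2 was not tested.

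Duox2 and Duoxa2 lie head to head, with 450 bases between them in the annotation. The 250 bases before the Duoxa2 start, on chr2:122298650-122298899, plus strand, are shown because they lie between these genes. None of the 3 patterns occurred there, which says only that those letters are absent from this window.
Duoxa2: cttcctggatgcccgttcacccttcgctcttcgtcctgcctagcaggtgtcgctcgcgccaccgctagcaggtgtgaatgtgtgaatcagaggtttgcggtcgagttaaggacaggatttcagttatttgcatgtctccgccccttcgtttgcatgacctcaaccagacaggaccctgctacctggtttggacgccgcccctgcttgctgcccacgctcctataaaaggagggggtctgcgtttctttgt

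The neighbouring pair of the same locus, Duox1 and its maturation factor gene Duoxa1, had low levels. Duox1 was at 6.02 and 2.17 CPM in the Itch KO libraries, against 28.4 and 4.89 CPM in the WT libraries. Duoxa1 was at 15.4 and 11.6 CPM in the Itch KO libraries, against 15.9 and 4.07 CPM in the WT libraries. Duox1 was highest in WT replicate 1, the library with squamous markers at 972 CPM, whose part in this value was not tested. Duoxa1 was nearly equal in WT replicate 1 and Itch KO replicate 1. Duoxa2 and Duoxa1 overlap on opposite strands over 682 exonic bases, 42.8% of Duoxa2. Without a known strand setting, reads of the 2 genes in that overlap cannot be told apart.

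Nox1, the superoxide-producing oxidase of colonic epithelium (ENSMUSG00000031257, chromosome X, 134086421 to 134221956, minus strand), was at 85.3 and 56.3 CPM in the Itch KO libraries, against 72.4 and 27.5 CPM in the WT libraries. WT replicate 1 lay between the Itch KO libraries, and WT replicate 2 was the lowest. The log2 fold change was 0.50 (SE 0.53, edgeR adjusted p = 0.614). It was 1.38 without WT replicate 1 and -0.041 without WT replicate 2, so a single WT library set its direction. Cstf2 overlaps 12.1% of its exonic bases on the opposite strand.

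The partners that NOX1 requires were measured next to it. Noxo1, its organizer subunit, was at 6.76 and 3.51 CPM in the Itch KO libraries, against 10.7 and 15.2 CPM in the WT libraries. Both Itch KO libraries were lower, with a log2 fold change of -1.33 (SE 0.56, edgeR unadjusted p = 0.0698). Noxa1, the activator subunit, was at 103 and 73.0 CPM in the Itch KO libraries, against 68.8 and 91.9 CPM in the WT libraries, so the groups overlapped. Cyba, the p22-phox subunit that epithelial and phagocyte oxidases share, was at 72.5 and 68.4 CPM in the Itch KO libraries, against 49.8 and 44.7 CPM in the WT libraries (log2 fold change 0.58, SE 0.15, edgeR unadjusted p = 0.0145). Rac1, a GTPase of the NOX1 complex, was at 201 and 174 CPM in the Itch KO libraries, against 176 and 147 CPM in the WT libraries.

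Among 12 other tested genes of NADPH and dual oxidases, edgeR called 0 after adjustment. At an unadjusted p below 0.05, 6 were higher and 0 lower, against 10.2% and 9.52% of all tested genes. DESeq2 called 5 higher and 0 lower, against 5.24% and 4.76%. Cybb, Rac2 and Ncf4, which encode parts of the phagocyte oxidase, were among them, and Ncf4 was named after its values were seen. Cybb, the catalytic subunit of the phagocyte oxidase, was at 115 and 187 CPM in the Itch KO libraries, against 61.7 and 39.3 CPM in the WT libraries. Ncf4, a cytosolic subunit, was at 56.2 and 85.9 CPM in the Itch KO libraries, against 13.0 and 10.8 CPM in the WT libraries. Beside them, the summed neutrophil markers were at 440 and 692 CPM in Itch KO libraries, against 255 and 20.6 CPM in WT libraries, and 5 listed macrophage markers at 484 and 727 CPM, against 320 and 220 CPM. The part of these cells in the phagocyte genes was not tested.

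**Figure D3:**
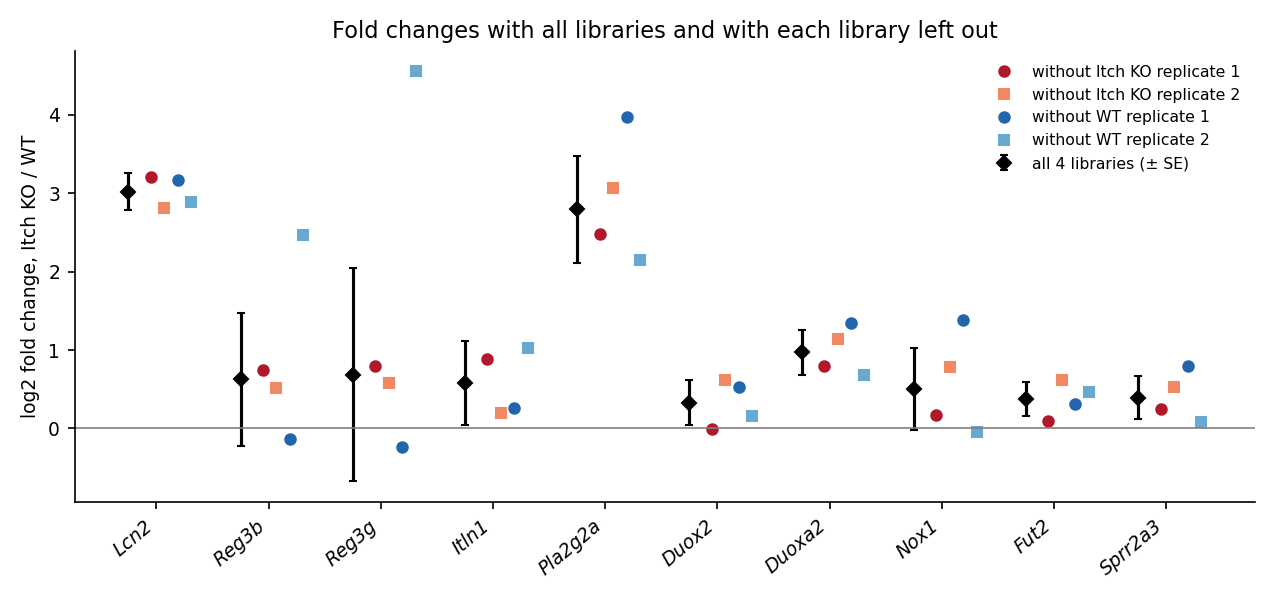
Log2 fold change of Itch KO over WT for each member, with all 4 libraries (diamond with SE) and with each library left out. Lcn2 stayed between 2.81 and 3.20, while Reg3b, Reg3g, Nox1 and Duox2 crossed 0 when 1 library was left out.

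Fut2 encodes the fucosyltransferase that adds terminal fucose to glycans of the gut surface (ENSMUSG00000055978, chromosome 7, 45648591 to 45666394, minus strand). It was at 248 and 175 CPM in the Itch KO libraries, against 153 and 173 CPM in the WT libraries. The groups did not overlap, but the nearest values were 175 CPM in Itch KO replicate 2 and 173 CPM in WT replicate 2. For Fut2 the log2 fold change was 0.37 (SE 0.22, edgeR adjusted p = 0.401), and without Itch KO replicate 1 it was 0.10. Fut2 made up 10.9% and 10.2% of the sum of colon epithelium markers in the Itch KO libraries, against 6.87% and 8.97% in the WT libraries.

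Of 13 other tested genes of fucosylation, edgeR and DESeq2 called 0 after adjustment, and their median log2 fold change was -0.09. At an unadjusted p below 0.05 in edgeR there were 0, where 10.2% of all tested genes were higher and 9.52% lower. Fut1, the paralog that adds the same linkage, was at 6.14 and 7.75 CPM in the Itch KO libraries, against 4.37 and 9.29 CPM in the WT libraries. Slc35c1, the transporter that brings GDP-fucose into the Golgi, was at 216 and 148 CPM in the Itch KO libraries, against 198 and 164 CPM in the WT libraries. Fut8 was at 171 and 112 CPM in the Itch KO libraries, against 146 and 131 CPM in the WT libraries. Pofut1 was at 122 and 118 CPM in the Itch KO libraries, against 128 and 134 CPM in the WT libraries.

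Sprr2a3 encodes a small proline-rich protein (ENSMUSG00000074445, chromosome 3, 92285417 to 92291405, plus strand), of a family known from cornified epithelia and, for SPRR2A in the mouse gut, as an antimicrobial protein. It was at 82.4 and 68.5 CPM in the Itch KO libraries, against 70.7 and 44.2 CPM in the WT libraries. WT replicate 1 lay between the Itch KO libraries and WT replicate 2 below them. For Sprr2a3 the log2 fold change was 0.39 (SE 0.28, edgeR adjusted p = 0.469), and the values without 1 library ranged from 0.088 to 0.79.

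The Sprr2a paralogs cannot be separated well in these counts. Of the 50-base stretches of Sprr2a3 transcripts, 61.1% also occurred in transcripts of other genes, among them Sprr2a1 and Sprr2a2, and for these genes the share was 96.3% and 96.5%. Sprr2a1 was at 233 and 164 CPM in the Itch KO libraries, against 228 and 162 CPM in the WT libraries. Sprr2a2 was at 236 and 168 CPM in the Itch KO libraries, against 232 and 165 CPM in the WT libraries. The 2 genes thus gave nearly the same value in each library, and their log2 fold changes were 0.03 and 0.02 (SE 0.27 each). Sprr1a was at 41.4 and 46.0 CPM in the Itch KO libraries, against 42.0 and 14.1 CPM in the WT libraries. Only 6 of 15 other small proline-rich genes were tested, with 0 at an unadjusted p below 0.05. At that threshold 10.2% of all tested genes were higher and 9.52% lower. Sprr3, a squamous gene, had 0 counts in 3 libraries and stood at 32.5 CPM in WT replicate 1.

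Per kilobase of exon, the order of the members differed from library to library. Pla2g2a was first in Itch KO replicate 1, at 86.7 CPM per kilobase, before Duox2 at 63.2. Reg3b was first in Itch KO replicate 2, at 61.0 CPM per kilobase, before Pla2g2a at 58.4. Duox2 was first in WT replicate 1, at 46.5 CPM per kilobase, and Reg3b in WT replicate 2, at 62.7. The lowest member was Itln1 in both Itch KO libraries, Reg3g in WT replicate 1, at 1.21 CPM per kilobase, and Lcn2 in WT replicate 2, at 3.67. Neighbours in these orders were not tested against each other. The members Reg3b, Duox2, Duoxa2, Fut2 and Pla2g2a belonged to the top 10% of tested genes by CPM per kilobase, where log2 fold changes had an interquartile range of 0.31, against 1.58 in the bottom 10%. The highest count of any gene in any library was 9389.

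Other antimicrobial effectors were mixed. Of 29 tested genes, edgeR called 0 after adjustment, and their median log2 fold change was 0.36. At an unadjusted p below 0.05, 7 were higher and 0 lower, against 10.2% and 9.52% of all tested genes. DESeq2 called 5 higher and 0 lower, against 5.24% and 4.76%. Nos2, the inducible nitric oxide synthase, was at 294 and 324 CPM in the Itch KO libraries, against 58.0 and 24.4 CPM in the WT libraries (log2 fold change 2.91, SE 0.46, edgeR adjusted p = 0.123). Dmbt1, a mucosal scavenger receptor, was at 589 and 413 CPM in the Itch KO libraries, against 544 and 448 CPM in the WT libraries. Pigr, the carrier of polymeric immunoglobulin, was at 438 and 317 CPM in the Itch KO libraries, against 400 and 321 CPM in the WT libraries. Retnlb and Ang4, goblet or Paneth cell products named after their values were seen, were higher in both Itch KO libraries. Retnlb was at 69.9 and 56.0 CPM in the Itch KO libraries, against 15.1 and 30.4 CPM in the WT libraries. Ang4 was at 63.4 and 58.3 CPM in the Itch KO libraries, against 2.99 and 26.6 CPM in the WT libraries. Like Reg3b and Reg3g, Ang4 was lowest in WT replicate 1.

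Genes of peroxide metabolism, peroxide being the product of the dual oxidases, differed by up to 1.08 on the log2 scale, the value of Sod3. Of 16 tested genes, edgeR and DESeq2 called 0 after adjustment, and the median log2 fold change was 0.38. At an unadjusted p below 0.05 in edgeR, 3 were higher and 1 lower, against 10.2% and 9.52% of all tested genes. The higher genes were Sod3, Prdx1 and Prdx5, named with Cat after their values were seen. Sod3, the extracellular superoxide dismutase, was at 98.5 and 138 CPM in the Itch KO libraries, against 74.8 and 37.7 CPM in the WT libraries (log2 fold change 1.08, SE 0.39). Prdx1 and Prdx5, peroxiredoxin genes, had log2 fold changes of 0.41 and 0.48. The lower gene was Cat, catalase, at 85.0 and 82.5 CPM in the Itch KO libraries and 104 and 139 CPM in the WT libraries (log2 fold change -0.54, SE 0.18). Txnrd1 was at 250 and 212 CPM in the Itch KO libraries, against 195 and 190 CPM in the WT libraries. Sod2 was at 119 and 155 CPM in the Itch KO libraries, against 100.3 and 109 CPM in the WT libraries. Prdx6 overlapped between the groups, at 202 and 142 CPM in the Itch KO libraries and 225 and 104 CPM in the WT libraries.

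Cytokines, receptors and factors of the pathways known to induce these genes were measured in the same libraries. The list also holds a feedback inhibitor, Socs3, so its counts are not of inducers alone. Of 23 tested genes, edgeR called 0 after adjustment, and the median log2 fold change was 0.62. At an unadjusted p below 0.05, 14 were higher and 0 lower, against 10.2% and 9.52% of all tested genes. DESeq2 called 10 higher and 0 lower, against 5.24% and 4.76%. Il22 had 21 and 170 counts in the Itch KO libraries and 0 in both WT libraries, at least 77.3-fold higher when the WT libraries together are set to 3 counts. That bound rests on Itch KO replicate 2, and with Itch KO replicate 1 alone it was at least 18.6-fold. Il17a was at 5.04 and 31.7 CPM in the Itch KO libraries, against 0.427 and 0 CPM in the WT libraries. Il22ra1, the epithelial subunit of the interleukin-22 receptor, was at 56.2 and 19.1 CPM in the Itch KO libraries, against 97.6 and 72.0 CPM in the WT libraries (log2 fold change -1.17, SE 0.56, edgeR unadjusted p = 0.0975). Itch KO replicate 2 had more of both cytokines than replicate 1 and less of the receptor.

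The factors with the highest levels in that list overlapped or differed little. Stat3, the factor downstream of the interleukin-22 receptor, was at 250 and 242 CPM in the Itch KO libraries, against 240 and 197 CPM in the WT libraries. Nfkb1 was at 160 and 174 CPM in the Itch KO libraries, against 152 and 154 CPM in the WT libraries. Elf3, an epithelial factor, was at 181 and 140 CPM in the Itch KO libraries, against 157 and 127 CPM in the WT libraries. Socs3, a feedback inhibitor that STAT3 induces, was named after its values were seen. It was at 158 and 193 CPM in the Itch KO libraries, against 70.9 and 83.6 CPM in the WT libraries (log2 fold change 1.18, SE 0.17, edgeR adjusted p = 0.123, DESeq2 adjusted p = 3.5e-05).

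**Figure D4:**
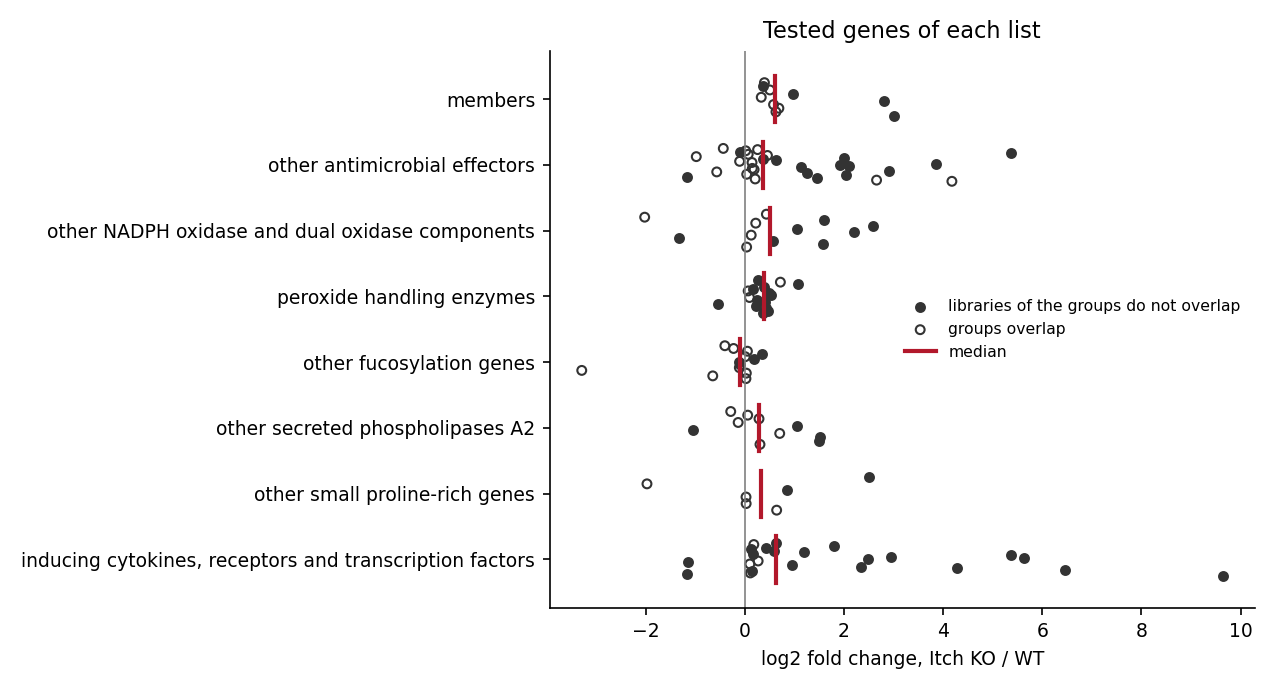
Log2 fold change of Itch KO over WT for each tested gene of the members and of 7 lists of related genes, filled where the libraries of the groups do not overlap, with the median as a red bar. The members' median was 0.60 and that of the fucosylation genes -0.09. For the list of inducing cytokines, receptors and factors, which includes the inhibitor Socs3, it was 0.62.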

How the data were processed

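Each library had its own file of unnormalized read counts, as deposited by the authors. Per the submitters' processing notes, HTSeq 0.6.1, SAMtools 0.1.19, TopHat2 and CASAVA 1.8.2 were used on build GRCm38 (mm10). The strand setting is not given in the sources used here. The file of WT replicate 1 lists 19308 genes and the others 39179 genes with 5 HTSeq summary lines, which stayed out of library sizes and tests. Where listed, reads outside genes made up 18.2% to 23% and ambiguous reads 2.67% to 3.03%.

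Groups followed the titles. Counts of the 19308 shared genes were tested with edgeR 4.0.16 in R 4.3.3 (TMM factors, filterByExpr with a minimum count of 10, robust quasi-likelihood test, group as the only term, two-sided, Benjamini-Hochberg at 0.05). The SE is the log2 fold change divided by the root of the F statistic. An exact permutation test of 2 against 2 cannot go below 0.333. DESeq2 1.42.0 and limma 3.58.1 (voom) were alternatives, and the script was tested on simulated data. Positions and exonic lengths came from GENCODE M21 (GRCm38), which held 19084 of the 19308 identifiers.

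Members and lists were chosen with earlier results of these data known. Beyond the members and their partners, the rule named the 3 genes of each list with the highest mean CPM.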

Additional observations from a re-analysis of the deposited data

Results flagged for a closer look

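Cebpd, which encodes a C/EBP transcription factor, is absent from the gene list of WT replicate 1 and so entered no test. In the other 3 libraries it had 516 and 656 counts in Itch KO replicates 1 and 2, or 63.4 and 67.8 CPM, against 323 counts or 26.3 CPM in WT replicate 2. The mean of the Itch KO libraries was 2.49 times the WT value, and with a single WT library there is no replicate check.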

How the results depend on the processing

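Of 140 refits of the members (10 members under 14 alternatives), 132 kept the direction and the side of the threshold, 4 passed the threshold and 4 changed sign. The 4 that passed were Lcn2 and Pla2g2a in DESeq2 (2 members and 1696 genes called) and in a fit scaled to the colon epithelium markers, chosen after the data were seen (2 members and 431 genes called, where edgeR otherwise called 0). In the scaled fit the median log2 fold change of all genes was 0.08. The 4 sign changes came from leaving out a library: Reg3b at -0.13 and Reg3g at -0.24 without WT replicate 1, Nox1 at -0.041 without WT replicate 2, and Duox2 at -0.0096 without Itch KO replicate 1. The highest values with a library left out were 2.47, 4.56, 1.38 and 0.61 for these genes. The cause was not tested. The number of members at an unadjusted p below 0.05 was 3 with all libraries and ranged from 1 (without Itch KO replicate 1) to 5 (without WT replicate 1). It was 4 without WT replicate 2 and 4 without Itch KO replicate 2. With a library left out, the lone sample of its group is assumed to vary like the other group.

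With the replicate number as a block, edgeR called 0 genes and 0 members, with log2 fold changes of 1.12 for Reg3b and 1.96 for Reg3g. Deviations of same-numbered libraries correlated at 0.05 across genes. Markers of other tissues in single libraries also enter that correlation, so it cannot decide whether the libraries were paired. Normalization by RLE or upper quartile, other filters, limma voom, robust=FALSE and legacy=FALSE called 0 genes each. Low counts limit Reg3g in WT replicate 1, with 24 counts.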

Other observations

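Mmp7, the protease that activates alpha-defensins in mouse Paneth cells, was at 48.4 and 38.7 CPM in the Itch KO libraries, against 8.64 and 17.4 CPM in the WT libraries (log2 fold change 1.74, SE 0.43, edgeR adjusted p = 0.167). Defa24, an alpha-defensin gene, was at 0.246 and 0 CPM in the Itch KO libraries, against 0.107 and 0.244 CPM in the WT libraries. Lyz1, the Paneth cell lysozyme, was at 35.02 and 46.0 CPM in the Itch KO libraries, against 71.2 and 16.2 CPM in the WT libraries. The 8 goblet cell markers summed to 1210 and 826 CPM in the Itch KO libraries, against 994 and 901 CPM in the WT libraries. Mmp7, Defa24 and Lyz1 were singled out of their marker list after their values were seen. That list and the goblet cell list were fixed in the design, with earlier results of these data known.

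Lpo, the lactoperoxidase that uses hydrogen peroxide, was at 126 and 78.0 CPM in the Itch KO libraries, against 35.3 and 88.5 CPM in the WT libraries, so the groups overlapped. Hamp, which encodes the iron-regulating peptide hepcidin, was at 1.11 and 7.54 CPM in the Itch KO libraries, against 0.107 and 0.0815 CPM in the WT libraries.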
